A study of Mus musculus with 192 samples.

Results

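This account compares the 3 libraries labelled LPS with the 3 labelled Ctrl among the 64 groups of 3 libraries each of an RNA sequencing series in mouse bone marrow-derived dendritic cells. The members are the 6 libraries whose ligand label is LPS or Ctrl, and every gene of the count table was read in them. The cells came from the bone marrow of female C57BL/6J mice aged 6 to 8 weeks and were grown in medium with GM-CSF (15 ng/mL), a growth factor that yields myeloid antigen-presenting cells in culture. In each well 100000 cells rested overnight in 100 µL of medium. They were then held for 6 hours with LPS (lipopolysaccharide, the outer-membrane glycolipid of Gram-negative bacteria) alone, or, for Ctrl, under the control label. The labels give neither the LPS dose nor what the control wells received. They do not say whether replicates were separate cultures or animals, so the spread between replicate libraries may be technical. The p-values rest on that spread as estimated over all 64 groups, not in the 6 libraries alone. The other single ligands, PAM, CpGB, cGAMP (a cyclic dinucleotide), SeV, HMW and Zymosan, were used only to show where LPS differed from them.

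Values are counts of unique molecular identifiers (UMIs, tags that mark 1 original cDNA molecule) and CPM, counts scaled to a common library total. The LPS libraries held 133379, 184640 and 229979 UMIs, and the Ctrl libraries 61823, 68941 and 89530, the lowest mean of the 64 groups. A single UMI was therefore worth 4.47 to 7.44 CPM with LPS and 9.60 to 13.9 CPM in Ctrl, and weakly expressed genes were measured least precisely in Ctrl. Markers of the labelled cell type were present in part. Cd74, H2-Aa, H2-Ab1, Itgax and Ccr7 were detected, whereas Zbtb46, Cd209a and Kmo had 0 counts in all 6 libraries, and the 13 dendritic cell markers summed to 6222 to 6676 CPM in Ctrl and 7340 to 7620 CPM with LPS. Macrophage and monocyte markers such as Lyz2, Csf1r and Cd68 were present as well, and all 13 summed to 13483 to 15103 CPM in Ctrl and 10526 to 10608 CPM with LPS. The 10 neutrophil markers summed to 749 to 973 CPM in Ctrl and 964 to 1251 CPM with LPS, with Elane and Mpo at 0. T, NK and erythroid markers were at 0 in every library, and B cell markers at 0 except for 1 UMI of Cd79a with LPS. In bulk libraries fewer cells of a type and less RNA per cell cannot be told apart.

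LPS is handed by the serum protein LBP and the surface protein CD14 to the complex of TLR4 with MD-2 (encoded by Ly96). TLR4 signals at the plasma membrane through the adaptors TIRAP and MyD88, which lead to NF-kB and MAP kinases, and from endosomes through TRAM and TRIF, which lead to IRF3 and interferon-beta. Secreted interferon-beta acts back through its receptor and switches on genes that carry interferon-stimulated response elements. Dendritic cells that sense LPS are known to mature, a change in which they raise costimulatory molecules and secrete cytokines that act on T cells.

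With LPS, 690 of 4720 tested genes were called higher than in Ctrl (14.6%) and 453 lower (9.6%), at an adjusted p under 0.05 with a log2 fold change of at least 1 in size. Adjusted p-values throughout are from edgeR's quasi-likelihood test over all 64 groups with Benjamini-Hochberg adjustment over all tested genes. The 3 LPS and 3 Ctrl libraries did not overlap for 1933 tested genes (41%). The split of calls depends on scaling. With every library thinned to equal totals 403 and 233 of the 1854 genes still testable were called, with a shift of -0.27 over those genes. Library size alone moved the median of all genes by -0.30 on the log2 scale and gave 540 higher and 765 lower genes, DESeq2 gave 549 and 551 with a shift of -0.15, RLE factors gave 613 and 580 with a shift of -0.14, and a test without a filter on low counts gave 805 and 284. With only the fold cut moved by the shift, and the adjusted p-values kept, library size alone gave 577 and 599, and DESeq2 562 and 499. The test without a filter had a shift of 0.24 and gave 721 and 312 in this way.

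**Figure D1:**
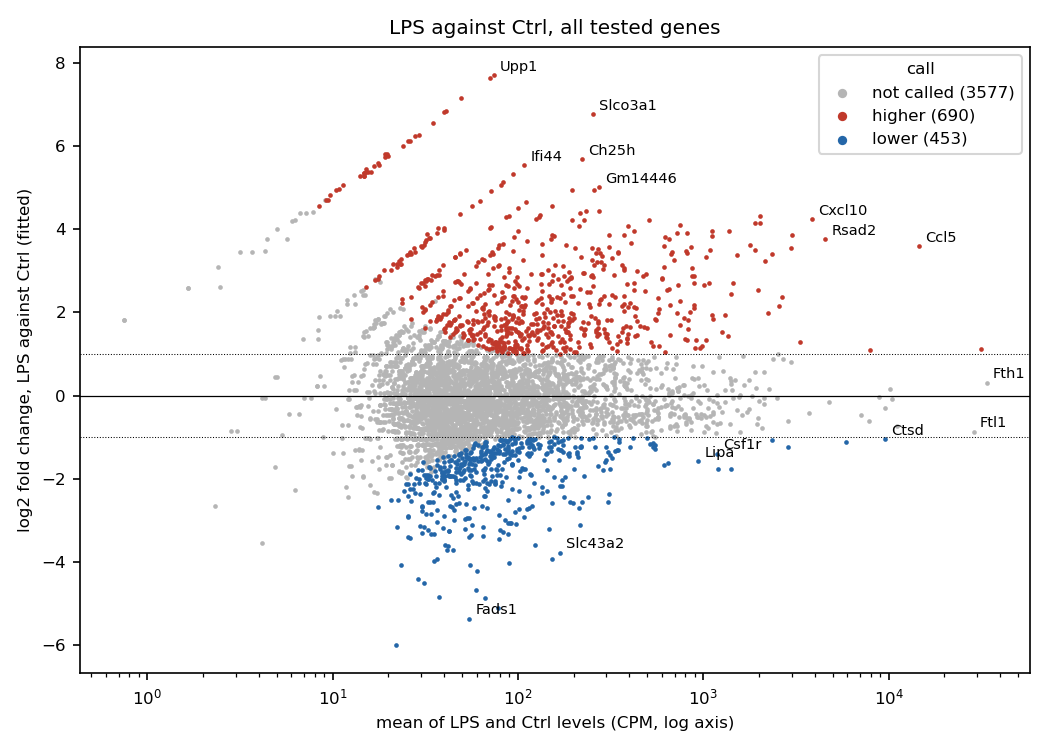
Each point is 1 tested gene, with the mean of its LPS and Ctrl levels on the log-scaled horizontal axis (CPM) and the fitted log2 fold change of LPS against Ctrl on the vertical axis; red marks genes called higher, blue genes called lower, grey genes not called, and dotted lines the fold threshold. The 690 higher genes reach the most abundant messages, such as Ccl5 and Rsad2, and the diagonal streaks at the upper left hold genes with 0 or very few Ctrl counts, whose fitted values are no measure of size.

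The gene lists described next differed widely in direction. All tested guanylate-binding proteins were called higher, and no tested lysosomal or oxidative phosphorylation gene was called higher. Of 25 listed cell cycle genes only 5 were tested, too few for such a contrast. The median log2 fold change of all tested genes was -0.06, and each list's median stands beside that value, and its counts beside the shares called over all tested genes (14.6% higher, 9.6% lower), as a description.

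**Figure D2:**
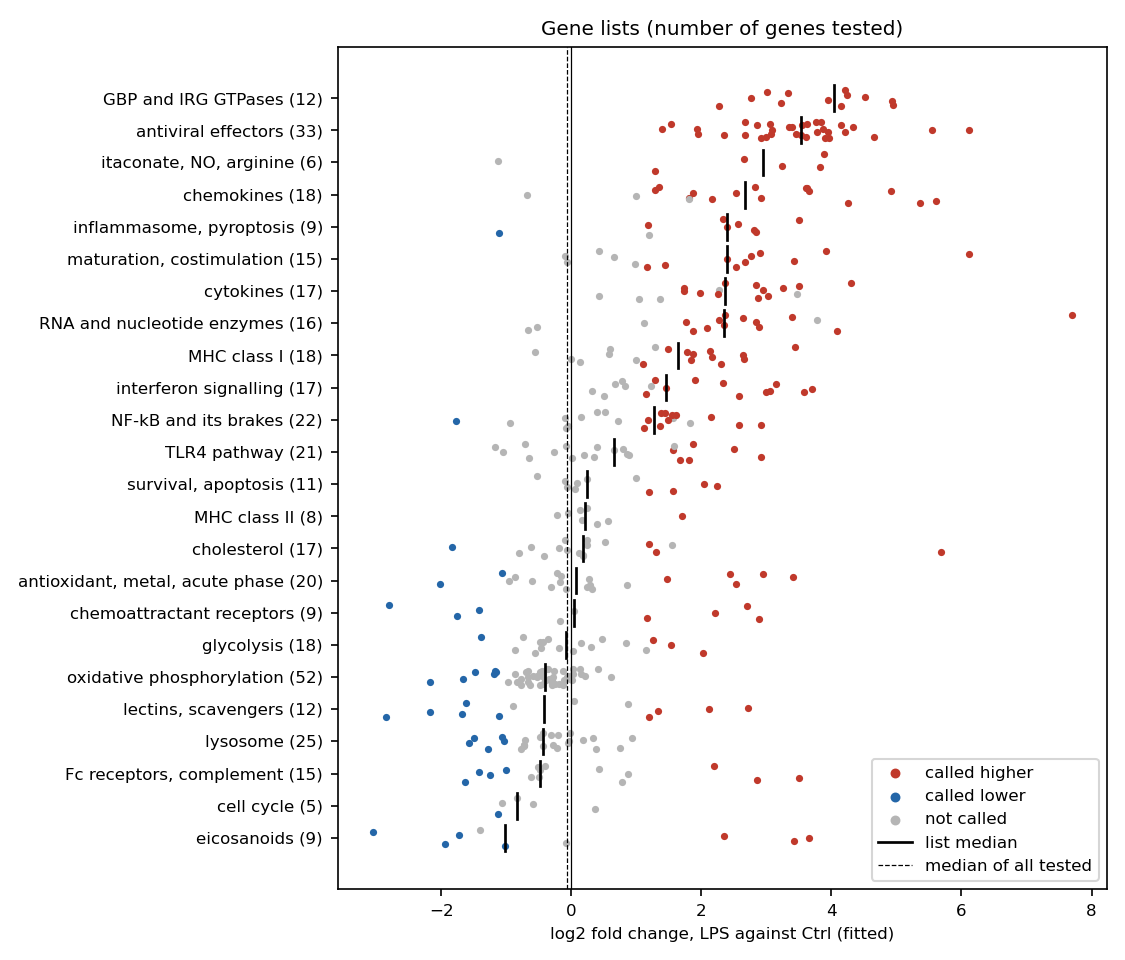
Each row is a gene list with its number of tested genes, each point a gene at its fitted log2 fold change of LPS against Ctrl; red points were called higher, blue points called lower and grey points not called, the black bar is the list median, and the dashed line the median of all tested genes. Interferon-induced lists sit at the top with medians of 4.05 and 3.53, and the cell cycle and eicosanoid lists at the bottom with medians of -0.83 and -1.02.

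Of the genes through which LPS is sensed, the receptor itself was barely counted and the coreceptor rose. Tlr4, the signalling receptor, was at 69.3, 37.4 and 9.6 CPM in the Ctrl libraries and 14.9, 22.2 and 13.4 CPM with LPS, 9 UMIs in Ctrl and 9 with LPS. The groups overlapped, and Tlr4 was not called (log2 fold change -1.05, adjusted p = 0.311, SE 0.75). Ly96 had 3 UMIs in Ctrl and 12 with LPS and did not pass the filter on low counts. Cd14, which loads LPS onto the receptor complex, was at 346, 337 and 403 CPM in the Ctrl libraries and 1385, 1236 and 1253 CPM with LPS. Every LPS library lay above every Ctrl library, and the log2 rise of Cd14 was 1.81 (adjusted p = 2.92e-17, SE 0.19).

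Within the TLR4 pathway list, 6 of 21 tested genes were higher, none lower, with a median log2 fold change of 0.66. They include signalling adaptors and enzymes as well as negative regulators. Myd88, the shared adaptor, stood at 97, 74.8 and 57.6 CPM in the Ctrl libraries and 223, 244 and 246 CPM with LPS. The log2 rise was 1.68 (adjusted p = 1.36e-05, SE 0.34), with no overlap between groups. Peli1, a ubiquitin ligase that acts in TLR signalling, was at 55.4, 112 and 48 CPM in the Ctrl libraries and 342, 471 and 380.3 CPM with LPS. Its log2 fold change was 2.50 (adjusted p = 8.65e-10, SE 0.36). Tank, an adaptor of the kinases TBK1 and IKK-epsilon, was at 69.3, 112 and 67.2 CPM in the Ctrl libraries and 238, 321 and 327 CPM with LPS, a rise of 1.86 (adjusted p = 3.91e-07, SE 0.32) on the log2 scale. Irak3, a kinase-dead member of the IRAK family that restrains MyD88 signalling, was at 13.9, 12.5 and 0 CPM in the Ctrl libraries and 89.3, 61 and 49.2 CPM with LPS. From 2 and 34 UMIs, the LPS-to-Ctrl ratio was 8.1 (counting interval 2.08 to 69.6) at an adjusted p of 0.00189. Here and in later ratios the 95% interval covers counting error only. Irak2, a kinase of the same family, rose on the log2 scale by 1.57 (adjusted p = 1.71e-04, SE 0.36). Tbk1 and Traf3, which act in the TRIF arm, were not called, at log2 fold changes of 0.66 and -1.17, and Tbk1 passed the threshold without Ctrl replicate 3 (1.06).

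11 of 22 tested members of the list of NF-kB factors and brakes were higher and 1 lower, Irak3 among the higher (median 1.27). Nfkbiz, an atypical IkB protein that licenses secondary response genes, was at 55.4, 37.4 and 28.8 CPM in the Ctrl libraries and 127, 183 and 201 CPM with LPS. No LPS library overlapped a Ctrl library, and the log2 fold change was 2.14 (adjusted p = 2.74e-06, SE 0.40). Socs3, a feedback inhibitor of gp130 cytokine receptors, was at 69.3, 12.5 and 76.8 CPM in the Ctrl libraries and 298, 377 and 313 CPM with LPS and rose on the log2 scale by 2.58 (adjusted p = 1.10e-11, SE 0.33). Nfkbib, which encodes IkB-beta, was at 55.4, 49.9 and 28.8 CPM in the Ctrl libraries and 119, 133 and 143 CPM with LPS and rose on the log2 scale by 1.62 (adjusted p = 0.00224, SE 0.45). Other log2 rises were measured for Nfkb2 (1.49), Nfkb1 (1.38), Nfkbia (1.37), Nfkbie (1.11), the deubiquitinase gene Tnfaip3 (1.44), its partner Tnip1 (1.18) and the RNase gene Zc3h12a (1.55). Rela, the transactivating subunit, was not called (log2 fold change 0.51). The 1 gene that fell was Nfkbid, an atypical IkB, at 29.8, 44.3 and 35.8 CPM in the LPS libraries and 180.1, 49.9 and 154 CPM in the Ctrl libraries. All LPS libraries lay below all Ctrl libraries, and the log2 fold change was -1.77 (adjusted p = 6.21e-04, SE 0.44). Nfkbie was under the fold threshold without Ctrl replicate 2 (0.97), and Tnip1 without Ctrl replicate 3 (0.89). With library size alone they stood at 0.82 and 0.88. Nfkbie also lost the call with RLE factors (0.97), DESeq2 (0.98), thinned counts (0.96) and in the LPS and Ctrl libraries alone, just under the threshold. Nfkbid was not among the genes tested in a fit of the LPS and Ctrl libraries alone, which called no member of this list lower.

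Cytokine transcripts rose in the interleukin 1 and interleukin 12 families and beyond, with 12 of 17 tested genes higher, none lower and a median of 2.37. Il1b, the pro-form of interleukin 1 beta, was at 319, 362 and 259 CPM in the Ctrl libraries and 3432, 3636 and 3477 CPM with LPS. Every LPS library lay above every Ctrl library, and the log2 fold change was 3.50 (adjusted p = 1.40e-50, SE 0.17). Il12a, the p35 subunit of interleukin 12, was at 0, 12.5 and 9.6 CPM in the Ctrl libraries and 127, 205 and 161 CPM with LPS. Its LPS-to-Ctrl ratio was 21.4 (counting interval 5.77 to 179.8), adjusted p = 2.70e-10. Il15, a cytokine that supports natural killer and memory CD8 T cells, was at 13.9, 37.4 and 38.4 CPM in the Ctrl libraries and 305, 249 and 233 CPM with LPS, a rise of 3.02 (adjusted p = 1.50e-10, SE 0.42) on the log2 scale. In these genes too the groups did not overlap. Tnfsf15, a TNF family ligand for the receptor DR3, was at 55.4, 37.4 and 57.6 CPM in the Ctrl libraries and 395, 432 and 362 CPM with LPS and rose on the log2 scale by 2.94 (adjusted p = 2.80e-08, SE 0.47). Il6, the acute-phase cytokine, was at 97, 99.8 and 182 CPM in the Ctrl libraries and 1369.7, 1086 and 1342 CPM with LPS, with no overlap and a log2 fold change of 3.25 (adjusted p = 8.89e-29, SE 0.24). Inhibitors of these cytokines rose too: Il1rn, the interleukin 1 receptor antagonist, on the log2 scale by 1.98 (adjusted p = 1.08e-19, SE 0.19), and Il18bp, a decoy for interleukin 18, by 1.73 (adjusted p = 1.43e-04, SE 0.39). Il1a (2.87), Il18 (2.85), the activin subunit Inhba (2.25) and Ebi3 (1.73), a subunit of interleukin 27, were also called higher (log2 fold changes). Il12b was not called. Its 32 UMIs with LPS against 3 in Ctrl gave a ratio of 5.08 (counting interval 1.59 to 25.9), adjusted p = 0.099, and without the filter on low counts the adjusted p was 0.00404. Il23a, Csf2 and Csf3 had 0 counts in all 6 libraries. A count of 0 in the LPS libraries allows up to 3 UMIs, so transcripts at that level were not detectable at this depth.

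**Figure D3:**
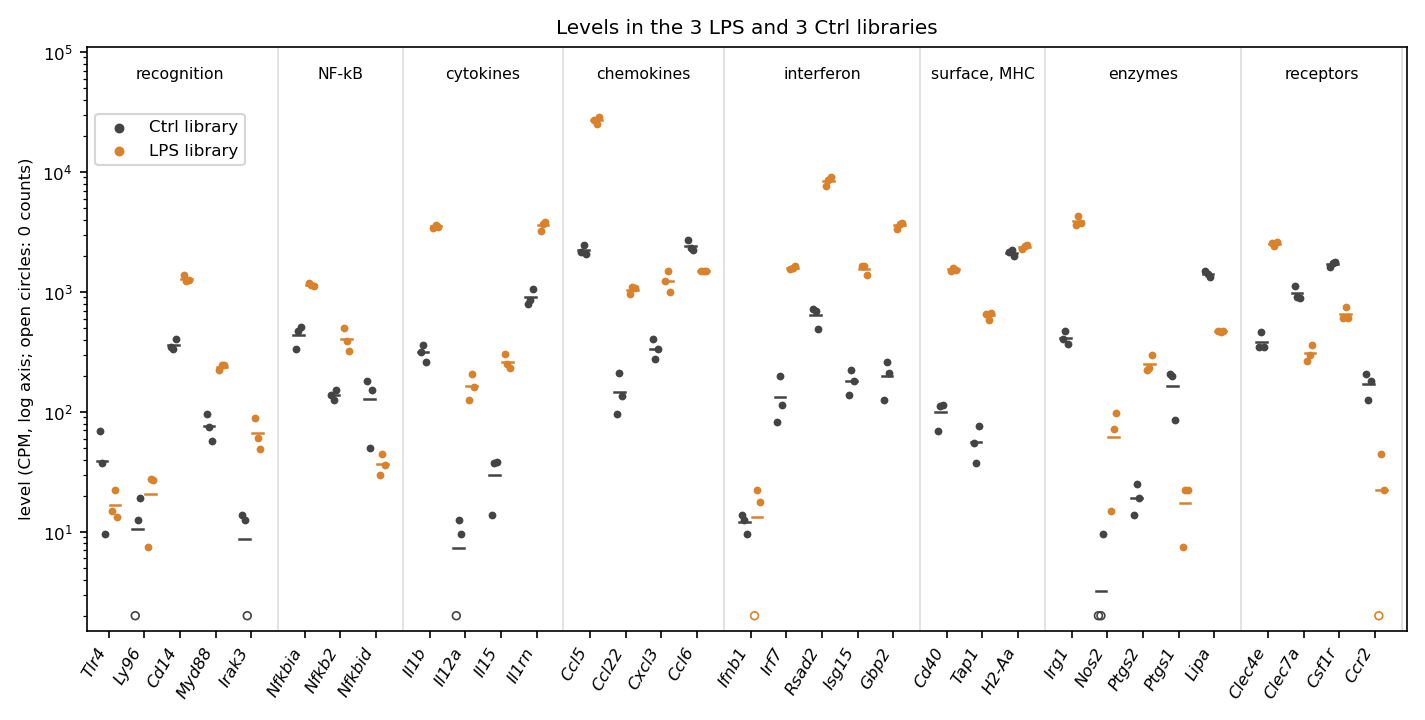
Points are the levels (CPM, log axis) of selected genes in the 3 Ctrl (grey) and 3 LPS (orange) libraries, grouped by role, with short bars at the group means and open circles for libraries with 0 counts. Ccl5, Il1b, Irg1 and Rsad2 lie apart between the groups, H2-Aa lies close together in all 6 libraries, and Lipa, Csf1r and Ccr2 lie lower with LPS.

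The chemokines with the largest rises, among those averaging 50 CPM or more, were Ccl5 and ligands of CXCR3 and CCR4. 15 of 18 tested chemokine genes were higher, none lower (median 2.68, or 2.16 with genes at 0 in Ctrl set to their bounds). Ccl5, an attractant of T cells and monocytes, was at 2133, 2469.5 and 2074 CPM in the Ctrl libraries and 27252, 25211 and 28623 CPM with LPS. This was a log2 rise of 3.60 (adjusted p = 4.00e-54, SE 0.16). Cxcl10, a ligand of CXCR3, was at 305, 511 and 336 CPM in the Ctrl libraries and 6774, 7493 and 7647 CPM with LPS, a log2 fold change of 4.25 (adjusted p = 1.43e-43, SE 0.23). Cxcl9 and Cxcl11, the other two CXCR3 ligands, were counted far less often. Cxcl9 was at 0, 12.5 and 19.2 CPM in the Ctrl libraries and 119, 139 and 188 CPM with LPS, a ratio of 13.2 (counting interval 4.36 to 65.2, adjusted p = 3.13e-07). Cxcl11 was at 0, 24.9 and 9.6 CPM in the Ctrl libraries and 149, 161 and 157 CPM with LPS, a ratio of 13.3 (counting interval 4.41 to 66, adjusted p = 9.76e-06). In all 4 genes the lowest LPS library lay far above the highest Ctrl library. Ccl17, a CCR4 ligand made by dendritic cells, was at 0, 0 and 9.6 CPM in the Ctrl libraries and 149, 127 and 143 CPM with LPS, 1 UMI against 75. Its ratio was 35.7 (counting interval 6.22 to 1430.4), adjusted p = 8.00e-09. The second CCR4 ligand, Ccl22, rose on the log2 scale by 2.82 (adjusted p = 3.04e-25, SE 0.23). Ccl7 and Ccl12, monocyte attractants with similar sequences that the counting may not separate, had 0 Ctrl UMIs and were at least 3.02-fold and 2.54-fold higher (adjusted p = 0.0104 and 0.0107, and 0.0516 and 0.0527 without Ctrl replicate 3). Neutrophil attractants moved less. Cxcl3 rose on the log2 scale by 1.88 (adjusted p = 7.02e-09, SE 0.29) and Cxcl2 by 1.35 (adjusted p = 6.28e-07, SE 0.24). Cxcl1 was not called, at 41.6, 24.9 and 106 CPM in the Ctrl libraries and 112, 127 and 129.8 CPM with LPS (log2 fold change 0.99, adjusted p = 0.126, SE 0.50), and it passed the threshold without the filter on low counts and without Ctrl replicate 3. Ccl6 was lower with LPS by less than the fold threshold, at 1489, 1479.7 and 1508 CPM in the LPS libraries and 2701, 2307 and 2227 CPM in the Ctrl libraries (log2 fold change -0.69, adjusted p = 8.76e-08, SE 0.11), and passed it with thinned counts (-1.01).

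Receptors for chemoattractants changed in both directions, with 4 of 9 tested genes higher and 3 lower. Fpr2, a formyl peptide receptor, was at 111, 125 and 106 CPM in the Ctrl libraries and 752, 909 and 841 CPM with LPS, a log2 rise of 2.88 (adjusted p = 4.65e-25, SE 0.23). Fpr1, its relative, was at 125, 149.7 and 67.2 CPM in the Ctrl libraries and 476, 604 and 447 CPM with LPS and rose on the log2 scale by 2.21 (adjusted p = 5.92e-16, SE 0.24). Ccrl2, an atypical receptor that binds chemerin, was at 97, 112 and 125 CPM in the Ctrl libraries and 692, 693 and 819 CPM with LPS (log2 fold change 2.70, adjusted p = 5.89e-18, SE 0.27). None of the 3 receptors had overlapping groups. Ccr7, which guides maturing dendritic cells to lymph nodes, rose on the log2 scale by 1.16 (adjusted p = 7.11e-06, SE 0.23), and by 0.86, under the threshold, with library size alone. Ccr2, the receptor that draws monocytes out of the marrow, was at 0, 44.3 and 22.4 CPM in the LPS libraries and 208, 125 and 182 CPM in the Ctrl libraries. Every LPS library lay below every Ctrl library, and Ccr2 fell with a log2 fold change of -2.80 (adjusted p = 1.19e-06, SE 0.51). Ccr1 and the complement C5a receptor gene C5ar1 also fell, with log2 fold changes of -1.76 (adjusted p = 1.10e-04, SE 0.39) and -1.42 (adjusted p = 1.53e-05, SE 0.29). The median of the list was 0.04 and turned negative with library size alone, DESeq2 or RLE factors, which shift all genes. Relative to those shifts it was 0.01 to 0.04. With thinned counts it was -0.28, and -0.0048 relative to their shift.

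Interferon-induced genes rose together, although the interferon-beta transcript itself was not called at 6 hours. Ifnb1 was at 13.9, 12.5 and 9.6 CPM in the Ctrl libraries and 0, 22.2 and 17.9 CPM with LPS, 3 and 8 UMIs. The groups overlapped, and the ratio was 1.27 (counting interval 0.305 to 7.44, adjusted p = 0.858). Of the interferon signalling list, 11 of 17 tested genes were higher and none lower (median 1.46). Irf7, the factor that amplifies interferon production, was at 83.1, 199.6 and 115 CPM in the Ctrl libraries and 1563, 1574 and 1642 CPM with LPS. It rose on the log2 scale by 3.58 (adjusted p = 6.36e-32, SE 0.24) with no overlap. Stat2, a factor activated by type I interferon receptors, was at 139, 87.3 and 28.8 CPM in the Ctrl libraries and 707, 659.5 and 622 CPM with LPS and rose on the log2 scale by 3.06 (adjusted p = 1.09e-21, SE 0.27). Irf7 and Stat2 were both low in each Ctrl library and high in each LPS library. Socs1, a feedback inhibitor of JAK kinases, was at 13.9, 0 and 28.8 CPM in the Ctrl libraries and 186, 205 and 237 CPM with LPS and rose on the log2 scale by 3.71 (adjusted p = 4.12e-11, SE 0.50). Irf1 (1.91) and Irf9 (1.46) rose as well, on the log2 scale. The receptor chain genes Ifnar1 and Ifnar2 were not called (log2 fold changes 0.51 and 0.68).

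All 33 tested antiviral effector genes were higher with LPS, with a median log2 fold change of 3.53 (3.45 with bounds), and none of their groups overlapped. Oas1g, 1 of the enzymes that make 2-5A to activate RNase L, was at 0 in every Ctrl library and at 67, 49.9 and 40.3 CPM with LPS. It was at least 4.29-fold higher (floor of 3 UMIs over the Ctrl group, adjusted p = 2.23e-04). Oas2, of the same enzyme family, was at 0, 12.5 and 9.6 CPM in the Ctrl libraries and 223, 194 and 228 CPM with LPS, a ratio of 27.6 (counting interval 7.48 to 231, adjusted p = 6.15e-12). Ifi44, an interferon-induced gene, was at 13.9, 0 and 0 CPM in the Ctrl libraries and 164, 211 and 259.5 CPM with LPS, a ratio of 56.2 (counting interval 9.9 to 2239.8, adjusted p = 2.45e-10). All 3 were nearly absent from Ctrl. Cmpk2, a mitochondrial nucleotide kinase gene, was at 208, 187 and 182 CPM in the Ctrl libraries and 3588, 3863 and 4117 CPM with LPS. The log2 rise was 4.33 (adjusted p = 8.18e-45, SE 0.23). Zbp1, a sensor of Z-form nucleic acids that can trigger necroptosis, was at 13.9, 49.9 and 0 CPM in the Ctrl libraries and 342, 305 and 461 CPM with LPS and rose on the log2 scale by 4.21 (adjusted p = 3.37e-17, SE 0.43). The radical enzyme viperin gene Rsad2 (3.76), the GTPase gene Mx1 (3.87), the ubiquitin-like modifier gene Isg15 (3.08) and the RNA sensor genes Ifih1 (3.60) and Ddx58 (3.45) rose in the same comparison (log2 fold changes in parentheses). Ifit, Oas and Mx genes have close relatives, and how reads matching several genes were counted is not given, so values within these families are uncertain.

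The guanylate-binding proteins and immunity-related GTPases, which attack the vacuoles of intracellular microbes, were higher in 12 of 12 tested genes, with a median of 4.05. Igtp (Irgm3) was at 0, 24.9 and 19.2 CPM in the Ctrl libraries and 454, 443 and 595 CPM with LPS. Its log2 fold change was 4.95 (adjusted p = 6.05e-23, SE 0.42). Gbp4 was at 27.7, 0 and 9.6 CPM in the Ctrl libraries and 372, 421 and 349 CPM with LPS, a ratio of 32.4 (counting interval 10.9 to 158, adjusted p = 2.01e-17). Gbp6 was at 0, 24.9 and 0 CPM in the Ctrl libraries and 179, 177 and 219 CPM with LPS, a ratio of 25 (counting interval 6.76 to 209, adjusted p = 1.59e-11). The 3 genes had at most 4 UMIs over the Ctrl group. Gbp3 was at 27.7, 87.3 and 38.4 CPM in the Ctrl libraries and 945, 948 and 1007 CPM with LPS and rose on the log2 scale by 4.24 (adjusted p = 2.54e-34, SE 0.27). Gbp5, which also promotes inflammasome assembly, was at 0, 24.9 and 38.4 CPM in the Ctrl libraries and 298, 454 and 550.4 CPM with LPS and rose on the log2 scale by 4.22 (adjusted p = 8.26e-18, SE 0.42). Gbp2 (4.14), Irgm1 (3.95) and Iigp1 (3.34) rose too, on the log2 scale. In none of these genes did a Ctrl library reach an LPS library. Tgtp1 and Tgtp2 had 0 counts in all 6 libraries, and the family's near-identical members may share reads.

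Promoter stretches of 6 genes that rose are shown because they carry, in varying mixtures, the letters of an interferon response element and of an NF-kB site. They are 150 bases each, read 5′ to 3′ on the gene's strand, from the RefSeq promoter table of build GRCm38.p6. The windows lie at different distances upstream of the start site. They span bases 150 to 1 before it for Isg15, Gbp2 and Il6, 167 to 18 for Ifit1 and Cxcl2, and 250 to 101 for Cxcl10. Capitals mark matches, on either strand, to the response element core GAAANNGAA or the NF-kB form GGANTTTCC, and overlapping matches run together. The locations are chr19:34640722-34640871 (plus strand) for Ifit1, chr4:156200819-156200968 (minus) for Isg15, chr3:142620513-142620662 (plus) for Gbp2, chr5:92348990-92349139 (minus) for Cxcl10, chr5:90903732-90903881 (plus) for Cxcl2 and chr5:30012964-30013113 (plus) for Il6.
Ifit1: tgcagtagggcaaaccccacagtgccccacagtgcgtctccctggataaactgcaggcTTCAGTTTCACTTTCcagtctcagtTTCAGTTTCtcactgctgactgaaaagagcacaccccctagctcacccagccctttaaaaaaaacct
Isg15: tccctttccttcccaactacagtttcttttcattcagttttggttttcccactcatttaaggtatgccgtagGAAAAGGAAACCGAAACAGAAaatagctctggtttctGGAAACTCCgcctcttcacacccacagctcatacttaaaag
Gbp2: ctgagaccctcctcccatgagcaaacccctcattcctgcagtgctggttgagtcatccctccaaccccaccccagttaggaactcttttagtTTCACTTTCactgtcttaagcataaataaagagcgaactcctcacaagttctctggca
Cxcl10: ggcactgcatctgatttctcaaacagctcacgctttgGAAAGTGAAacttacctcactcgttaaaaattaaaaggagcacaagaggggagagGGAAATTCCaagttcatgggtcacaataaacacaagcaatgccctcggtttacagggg
Cxcl2: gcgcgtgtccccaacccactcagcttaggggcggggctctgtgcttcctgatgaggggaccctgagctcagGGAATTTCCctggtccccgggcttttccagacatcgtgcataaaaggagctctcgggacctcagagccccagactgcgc
Il6: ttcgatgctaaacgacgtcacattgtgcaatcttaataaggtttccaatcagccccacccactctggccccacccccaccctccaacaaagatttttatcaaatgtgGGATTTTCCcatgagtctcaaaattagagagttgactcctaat

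Against Ctrl the log2 fold changes of these genes were 4.15 for Ifit1, 3.08 for Isg15, 4.14 for Gbp2, 4.25 for Cxcl10, 1.35 for Cxcl2 and 3.25 for Il6, all called higher. Ifit1 and Gbp2 hold core matches and no NF-kB form in these stretches, Cxcl2 and Il6 hold 1 NF-kB form and no core match, and Isg15 and Cxcl10 hold both. Over the 250 bases upstream of all 32851 promoters in the table, 7.13% held the core and 1.07% the NF-kB form. 3614 of the 4720 tested genes matched the table by symbol, and 7.09% and 1.67% of their promoters held the core and the NF-kB form. Among promoters of genes called higher the shares were 13% and 3.23%, among those called lower 6.75% and 1.53%, and among those not called 5.99% and 1.38%. All 7 matched GTPase genes, 11 of 25 matched antiviral genes and 3 of 11 matched chemokine genes held the core, against 0 of 13 cytokine genes and 8.83% of all matched tested genes. The NF-kB form was present in 4 of 11 matched chemokine genes, 2 of 13 cytokine genes, 1 of 7 GTPase genes and 1 of 25 antiviral genes, and in 2.05% of all matched tested genes. These are descriptions of letters in a window, with no test.

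Antigen presentation genes moved unevenly. Genes of the class I pathway, which presents peptides to CD8 T cells, were higher in 11 of 18 tested cases, with none lower (median 1.64). Tap1, a subunit of the transporter that carries peptides into the endoplasmic reticulum, was at 55.4, 37.4 and 76.8 CPM in the Ctrl libraries and 655, 587 and 671 CPM with LPS. This was a log2 rise of 3.43 (adjusted p = 2.33e-26, SE 0.27). Psme2, a subunit of the PA28 proteasome activator, averaged 199.8 ± 7.87 CPM in Ctrl (SD, n = 3) and 1258 ± 102 CPM with LPS, without overlap, and rose on the log2 scale by 2.65 (adjusted p = 1.68e-30, SE 0.19). Nlrc5, the transactivator of class I genes, was at 55.4, 99.8 and 57.6 CPM in the Ctrl libraries and 424, 443 and 447 CPM with LPS, a log2 rise of 2.63 (adjusted p = 9.63e-12, SE 0.34). Psmb9, a catalytic subunit of the immunoproteasome, was at 69.3, 24.9 and 38.4 CPM in the Ctrl libraries and 179, 244 and 215 CPM with LPS (log2 fold change 2.30, adjusted p = 1.94e-07, SE 0.39). For these 4 genes all LPS libraries lay above all Ctrl libraries. Psmb8, another such subunit, was at 111, 112 and 163 CPM in the Ctrl libraries and 596, 615 and 577 CPM with LPS (log2 fold change 2.17, adjusted p = 1.21e-17, SE 0.22). The light chain gene B2m rose on the log2 scale by 1.10 (adjusted p = 5.02e-18, SE 0.11), just past the threshold, and it was under it with library size alone, RLE factors, DESeq2, thinned counts and LPS and Ctrl alone (0.79 to 1.00). H2-K1 was not called (log2 fold change 0.99, adjusted p = 1.46e-12), and each fit without 1 of the 6 libraries called it (1.03 to 1.16), each with a larger number of tested genes.

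Class II genes, which present to CD4 T cells, were mostly not called. Of 8 tested genes 1 was higher, a share close to the 14.6% of all tested genes, and none lower (median 0.21, negative with library size alone but 0.20 relative to its shift of all genes). That gene was March1, a ubiquitin ligase that removes class II from the surface, at 55.4, 37.4 and 9.6 CPM in the Ctrl libraries and 96.8, 99.8 and 112 CPM with LPS (log2 fold change 1.71, adjusted p = 0.00189, SE 0.47). Its call was lost without Ctrl replicate 3 (log2 fold change 1.23, adjusted p = 0.0679). Cd74, the invariant chain, was at 776, 836 and 710.5 CPM in the Ctrl libraries and 1005, 1019.7 and 1016 CPM with LPS, a log2 fold change of 0.40 (adjusted p = 0.0299, SE 0.15), under the fold threshold of 1. H2-Ab1, a class II chain, was at 1718, 1522 and 1335 CPM in the Ctrl libraries and 1757, 1868 and 1754 CPM with LPS and was not called (log2 fold change 0.24, adjusted p = 0.0858, SE 0.11).

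Costimulatory and maturation genes were higher in 10 of 15 tested cases, none lower (median 2.39, 2.10 with bounds). Cd40, the receptor for CD40 ligand on helper T cells, was at 69.3, 112 and 115 CPM in the Ctrl libraries and 1489, 1591 and 1535 CPM with LPS. It rose on the log2 scale by 3.92 (adjusted p = 5.41e-36, SE 0.25). Il15ra, which presents interleukin 15 in trans, was at 41.6, 74.8 and 28.8 CPM in the Ctrl libraries and 409, 526 and 573 CPM with LPS and rose on the log2 scale by 3.43 (adjusted p = 3.63e-18, SE 0.34). Both were low in Ctrl and separate from LPS. Cd86, a ligand of CD28, was at 27.7, 49.9 and 28.8 CPM in the Ctrl libraries and 335, 249 and 237 CPM with LPS and rose on the log2 scale by 2.91 (adjusted p = 6.07e-09, SE 0.44). Cd200, an inhibitory ligand, was at 0, 37.4 and 67.2 CPM in the Ctrl libraries and 290.3, 255 and 264 CPM with LPS, a log2 rise of 2.76 (adjusted p = 1.93e-10, SE 0.38). Icosl, the ligand of ICOS, had 0 Ctrl UMIs and 52.1, 61 and 40.3 CPM with LPS, at least 4.29-fold higher (adjusted p = 2.94e-04). The inhibitory ligand gene Cd274 (2.67), the actin-bundling gene Fscn1 (2.39) and the adhesion gene Icam1 (1.45) rose as well, on the log2 scale. Cd80 and Pdcd1lg2 had 1 and 9 UMIs with LPS and 0 in Ctrl and were not tested.

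Genes of itaconate, nitric oxide and arginine metabolism were higher in 5 of 6 tested cases (median log2 fold change 2.95). Irg1, the itaconate synthase gene, was at 402, 474 and 365 CPM in the Ctrl libraries and 3588, 4317 and 3776 CPM with LPS. The log2 rise was 3.24 (adjusted p = 2.60e-54, SE 0.15). Slc7a2, the cationic amino acid carrier that imports arginine, was at 166, 162 and 115 CPM in the Ctrl libraries and 2218, 2056 and 1933 CPM with LPS and rose on the log2 scale by 3.83 (adjusted p = 5.57e-53, SE 0.18). Each LPS library exceeded every Ctrl library for both. Gch1, the first enzyme of the cofactor tetrahydrobiopterin, was at 41.6, 74.8 and 28.8 CPM in the Ctrl libraries and 231, 338 and 313 CPM with LPS and rose on the log2 scale by 2.65 (adjusted p = 1.18e-11, SE 0.34). Ass1, which regenerates arginine from citrulline, rose on the log2 scale by 1.29 (adjusted p = 9.27e-05, SE 0.29), and by 0.99, under the threshold, with library size alone. Nos2, inducible nitric oxide synthase, was at 0, 0 and 9.6 CPM in the Ctrl libraries and 14.9, 72 and 98.4 CPM with LPS, 1 and 37 UMIs. Its lowest LPS library lay above the highest Ctrl library, and the ratio was 17.6 (counting interval 2.97 to 715, adjusted p = 7.69e-04).

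Eicosanoid genes moved both ways, with 3 of 9 tested genes higher and 4 lower (median -1.02). Ptgs2, inducible cyclooxygenase, was at 13.9, 24.9 and 19.2 CPM in the Ctrl libraries and 223, 233 and 295 CPM with LPS. This was a log2 rise of 3.66 (adjusted p = 1.78e-09, SE 0.54). Pla2g4a, the phospholipase that frees arachidonic acid, was at 0, 0 and 19.2 CPM in the Ctrl libraries and 104, 55.4 and 112 CPM with LPS, a ratio of 11.7 (counting interval 3.06 to 99.1, adjusted p = 1.20e-05). Both were close to the counting floor in Ctrl. Ptges, which makes prostaglandin E2, was at 13.9, 12.5 and 28.8 CPM in the Ctrl libraries and 89.3, 116 and 98.4 CPM with LPS and rose on the log2 scale by 2.35 (adjusted p = 3.93e-04, SE 0.57). Ptgs1, constitutive cyclooxygenase, was at 7.44, 22.2 and 22.4 CPM in the LPS libraries and 208, 199.6 and 86.4 CPM in the Ctrl libraries. All LPS libraries lay below all Ctrl libraries, and the log2 fold change was -3.05 (adjusted p = 7.80e-07, SE 0.54). Tbxas1, thromboxane synthase, was at 89.3, 88.7 and 98.4 CPM in the LPS libraries and 457, 337 and 298 CPM in the Ctrl libraries and fell (log2 fold change -1.94, adjusted p = 4.93e-09, SE 0.29). Alox5ap and Lta4h, both in leukotriene synthesis, fell with log2 fold changes of -1.02 (adjusted p = 0.00878, SE 0.32) and -1.72 (adjusted p = 0.0189, SE 0.60). Alox5ap lost the call without LPS replicate 1, 2 or 3 or Ctrl replicate 1, and Lta4h without LPS replicate 1 or 2 or Ctrl replicate 1 or 3. The count of lower genes was 2 without LPS replicate 1, LPS replicate 2 or Ctrl replicate 1.

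Nucleotide and RNA enzymes, many of them interferon-induced, were higher in 12 of 16 tested genes (median 2.35). Pnp, purine nucleoside phosphorylase, was at 194, 274 and 307 CPM in the Ctrl libraries and 2665, 3009 and 2635 CPM with LPS. It rose on the log2 scale by 3.39 (adjusted p = 7.32e-48, SE 0.17). Dck, deoxycytidine kinase, was at 27.7, 37.4 and 9.6 CPM in the Ctrl libraries and 164, 177 and 175 CPM with LPS and rose on the log2 scale by 2.84 (adjusted p = 2.05e-08, SE 0.45). Both enzymes act in nucleoside salvage. Slfn4, a member of the Schlafen family, whose similar members may share reads, was at 13.9, 37.4 and 19.2 CPM in the Ctrl libraries and 349.9, 366 and 488 CPM with LPS and rose on the log2 scale by 4.08 (adjusted p = 4.08e-13, SE 0.49). Slfn8, of the same family, was at 13.9, 24.9 and 76.8 CPM in the Ctrl libraries and 305, 299 and 349 CPM with LPS and rose on the log2 scale by 2.88 (adjusted p = 8.99e-12, SE 0.37). Upp1, uridine phosphorylase, was at 0 in Ctrl and at 96.8, 183 and 166 CPM with LPS, at least 13.2-fold higher (adjusted p = 1.77e-09). No Ctrl library reached an LPS library in any of these 5 genes.

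Inflammasome genes were higher in 7 of 9 tested cases and lower in 1 (median 2.40). Casp4, the mouse caspase-11 that senses intracellular LPS, was at 83.1, 12.5 and 28.8 CPM in the Ctrl libraries and 387, 249 and 224 CPM with LPS. The log2 rise was 2.80 (adjusted p = 1.38e-10, SE 0.39). Casp1, the caspase that matures interleukin 1 beta, was at 69.3, 74.8 and 48 CPM in the Ctrl libraries and 335, 349 and 425 CPM with LPS and rose on the log2 scale by 2.57 (adjusted p = 6.05e-12, SE 0.33). Both caspases were higher in each LPS library. Nlrp3, the sensor whose priming step is transcriptional, was at 27.7, 87.3 and 28.8 CPM in the Ctrl libraries and 223, 266 and 255 CPM with LPS and rose on the log2 scale by 2.40 (adjusted p = 2.44e-08, SE 0.38). Pycard, the adaptor ASC, was at 112, 133 and 71.6 CPM in the LPS libraries and 249, 187 and 230.4 CPM in the Ctrl libraries and fell (log2 fold change -1.10, adjusted p = 0.00182, SE 0.30), a call lost without LPS replicate 3 (adjusted p = 0.0818) and, by the fold threshold, without Ctrl replicate 1 (-0.98). Survival genes were higher in 4 of 11 tested cases, none lower (median 0.24, negative with library size alone but 0.24 relative to its shift of all genes). Traf1, an adaptor of TNF receptors, rose on the log2 scale by 2.24 (adjusted p = 1.37e-09, SE 0.33), and Cflar, which restrains caspase-8, by 2.04 (adjusted p = 1.81e-16, SE 0.21). That count was 2 without Ctrl replicate 1 or 2, and with library size alone, RLE factors, DESeq2 or thinned counts.

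Genes of iron, antioxidant and acute-phase handling were higher in 5 of 20 tested cases, against 14.6% of all tested genes, and lower in 2, close to the 9.6% of all (median 0.08). The median turned negative with library size alone, RLE factors or DESeq2 and was 0.07 to 0.08 relative to their shifts of all genes, and with thinned counts it was -0.31, or -0.03 relative to the shift. Saa3, an acute-phase apolipoprotein, was at 360.1, 461 and 384 CPM in the Ctrl libraries and 5099, 4073 and 3754 CPM with LPS. This was a log2 rise of 3.42 (adjusted p = 9.88e-33, SE 0.23). Lcn2, which binds bacterial siderophores, was at 69.3, 49.9 and 38.4 CPM in the Ctrl libraries and 432, 405 and 362 CPM with LPS and rose on the log2 scale by 2.95 (adjusted p = 3.82e-14, SE 0.34). For both, the groups did not overlap. Sod2, mitochondrial superoxide dismutase, was at 429, 524 and 374 CPM in the Ctrl libraries and 2293, 2355 and 2519 CPM with LPS and rose on the log2 scale by 2.45 (adjusted p = 9.81e-45, SE 0.13). Slc30a1, a zinc exporter, was at 13.9, 12.5 and 28.8 CPM in the Ctrl libraries and 134, 133 and 89.5 CPM with LPS and rose on the log2 scale by 2.53 (adjusted p = 2.00e-04, SE 0.59). Gclc, the catalytic subunit that starts glutathione synthesis, was at 22.3, 22.2 and 13.4 CPM in the LPS libraries and 83.1, 74.8 and 76.8 CPM in the Ctrl libraries. Every LPS library lay below every Ctrl library, and Gclc fell (log2 fold change -2.02, adjusted p = 0.00311, SE 0.58), as did its modifier subunit gene Gclm (log2 fold change -1.07, adjusted p = 0.0244, SE 0.39). Gclc and Gclm were together the lower count of 2, which was 1, with Gclm lost, without LPS replicate 1, LPS replicate 3, Ctrl replicate 2 or Ctrl replicate 3, and 4 with library size alone, RLE factors or DESeq2.

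Of 18 tested glycolysis genes 3 were higher, a share close to the 14.6% of all tested genes, and 1 lower (median -0.09). Pfkp, a phosphofructokinase, was at 41.6, 12.5 and 67.2 CPM in the Ctrl libraries and 149, 161 and 210.3 CPM with LPS, a log2 rise of 2.03 (adjusted p = 5.08e-05, SE 0.44). Hk3, a hexokinase, was at 125, 187 and 240.0 CPM in the Ctrl libraries and 506, 509.9 and 622 CPM with LPS and rose on the log2 scale by 1.53 (adjusted p = 2.17e-08, SE 0.24). The higher count was 5 without LPS replicate 1. Gpi1, glucose-6-phosphate isomerase, was at 81.9, 111 and 116 CPM in the LPS libraries and 194, 349 and 278 CPM in the Ctrl libraries and fell (log2 fold change -1.38, adjusted p = 1.20e-04, SE 0.31). In oxidative phosphorylation 6 of 52 tested genes fell, a share close to the 9.6% of all tested genes, and none was called higher (median -0.40). A low median was not particular to this list: 69 tested ribosomal protein genes had a median of -0.53, with 6 lower and 0 higher. Ndufs7, a complex I subunit, was at 14.9, 27.7 and 40.3 CPM in the LPS libraries and 152, 87.3 and 163 CPM in the Ctrl libraries (log2 fold change -2.18, adjusted p = 1.83e-05, SE 0.44). Ndufb8, of the same complex, was at 37.2, 61 and 13.4 CPM in the LPS libraries and 180.1, 99.8 and 76.8 CPM in the Ctrl libraries (log2 fold change -1.66, adjusted p = 0.00393, SE 0.48), and its call was lost without LPS replicate 3 (adjusted p = 0.115) or Ctrl replicate 1 (adjusted p = 0.105). The count of 6 was 11 with library size alone and 2 or 3 without LPS replicate 2, LPS replicate 3, Ctrl replicate 1 or Ctrl replicate 3. 1 of 5 tested cell cycle genes was lower, Hmgb2 (log2 fold change -1.12, adjusted p = 0.0484, SE 0.46), a chromatin protein, and it lost the call in each fit without 1 of the 6 libraries.

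Lysosomal genes fell in 5 of 25 tested cases, against 9.6% of all tested genes, and none was called higher (median -0.43). By adjusted p alone, whatever the size of the change, 13 lysosomal genes were lower and 3 higher. By that same rule 608 of all 4720 tested genes were lower and 807 higher. Lipa, lysosomal acid lipase, was at 469, 466 and 474 CPM in the LPS libraries and 1482, 1409 and 1325 CPM in the Ctrl libraries. No LPS library reached a Ctrl library, and the log2 fold change was -1.57 (adjusted p = 2.89e-17, SE 0.16). Atp6v0d2, a subunit of the proton pump, was at 179, 166 and 161 CPM in the LPS libraries and 568, 349 and 499 CPM in the Ctrl libraries and fell (log2 fold change -1.49, adjusted p = 1.25e-08, SE 0.23). Both were lower in every LPS library than in every Ctrl library. Ctsd, the aspartic protease cathepsin D, was at 5799, 6628 and 6322 CPM in the LPS libraries and 12341, 13283 and 12923 CPM in the Ctrl libraries and fell (log2 fold change -1.04, adjusted p = 7.59e-22, SE 0.09), close to the threshold. Ctsd was under the threshold without LPS replicate 1, 2 or 3 or Ctrl replicate 2 or 3 (-0.99 to -0.90). These fits also had shifts of all genes of 0.08 to 0.12, and their part in the lost calls was not tested. Npc1, a cholesterol exporter of lysosomes, and Lgmn, legumain, fell as well, with log2 fold changes of -1.28 (adjusted p = 0.0064, SE 0.39) and -1.07 (adjusted p = 0.00236, SE 0.30). Npc1 lost the call without LPS replicate 1 or 2 or Ctrl replicate 2, and Lgmn without LPS replicate 1 or 3 or Ctrl replicate 2 or 3. The count of 5 was 10 with library size alone and 2 or 3 without LPS replicate 1, 2 or 3 or Ctrl replicate 2 or 3. Sterol genes showed 1 large change: Ch25h, cholesterol 25-hydroxylase, was at 0, 12.5 and 9.6 CPM in the Ctrl libraries and 417, 427 and 465 CPM with LPS. Its ratio was 56.5 (counting interval 15.5 to 469, adjusted p = 6.24e-18). 3 of 17 tested sterol genes were higher, close to the 14.6% of all tested genes (median 0.19, negative with library size alone but 0.18 relative to its shift of all genes), and 1 lower, against 9.6% of all, a call lost without LPS replicate 1 or 2 or Ctrl replicate 1 or 3.

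Surface receptors for microbes and complement changed both ways. Lectins and scavenger receptors were higher in 4 of 12 tested cases and lower in 5 (median -0.43). Clec4e (Mincle), a receptor for mycobacterial and fungal glycolipids, was at 346, 461 and 346 CPM in the Ctrl libraries and 2546, 2427 and 2591 CPM with LPS. It rose on the log2 scale by 2.72 (adjusted p = 2.61e-43, SE 0.15). Marco, a scavenger receptor, was at 360.1, 324 and 326 CPM in the Ctrl libraries and 1385, 1602 and 1383 CPM with LPS and rose on the log2 scale by 2.12 (adjusted p = 2.96e-13, SE 0.25). Clec4n (Dectin-2), a receptor for fungal mannans, was at 253, 327 and 291 CPM in the LPS libraries and 956, 910.5 and 951 CPM in the Ctrl libraries and fell (log2 fold change -1.68, adjusted p = 3.56e-16, SE 0.18). These 3 separated fully between the groups. Clec4a2, an inhibitory lectin with close relatives, was at 52.1, 55.4 and 71.6 CPM in the LPS libraries and 416, 199.6 and 240.0 CPM in the Ctrl libraries and fell (log2 fold change -2.18, adjusted p = 2.11e-09, SE 0.32). Clec7a (Dectin-1) fell too (log2 fold change -1.63, adjusted p = 2.52e-15, SE 0.18). Scarb1, a lipoprotein receptor, was at 14.9, 0 and 8.95 CPM in the LPS libraries and 13.9, 87.3 and 67.2 CPM in the Ctrl libraries and fell (log2 fold change -2.85, adjusted p = 0.00141, SE 0.76), although the groups overlapped. Fc receptor and complement genes were higher in 3 and lower in 4 of 15 tested cases (median -0.49), against 14.6% and 9.6% of all tested genes. Cfb, complement factor B, was at 139, 212 and 173 CPM in the Ctrl libraries and 2084, 2034 and 1848 CPM with LPS. The log2 rise was 3.49 (adjusted p = 6.46e-42, SE 0.20). Fcgr1, the high-affinity IgG receptor, was at 55.4, 49.9 and 76.8 CPM in the Ctrl libraries and 409, 460.0 and 483 CPM with LPS and rose on the log2 scale by 2.85 (adjusted p = 3.84e-11, SE 0.38). Neither overlapped between the groups. C3, the central complement component, was at 208, 262 and 240.0 CPM in the Ctrl libraries and 975, 1125 and 1141 CPM with LPS and rose on the log2 scale by 2.19 (adjusted p = 4.22e-21, SE 0.20). Fcgr3 (-1.25), an activating IgG receptor, and C1qa (-1.64) fell on the log2 scale. C1qa, a subunit of the first complement component whose groups overlapped, lost the call without LPS replicate 3 or Ctrl replicate 1 or 2. Csf1r, the receptor for the macrophage growth factor M-CSF, also fell, with a log2 change of -1.39 (adjusted p = 6.22e-16, SE 0.15). Of 12 tested macrophage and monocyte markers 5 fell and 2 rose, and their summed level was lower with LPS (10526 to 10608 CPM against 13483 to 15103 CPM). The part of that difference in the falls of these receptors, of Ccr2 and of lysosomal genes was not tested.

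Rises were ranked by fitted fold among called genes without overlap that averaged 100 CPM or more in either group. The 10 largest all had at most 4 Ctrl UMIs, where fitted values are poor measures of size, so the ranking is uncertain. Of these, 4 (Ifi44, Igtp, Ch25h and Upp1) are described with their lists. Slco3a1, an organic anion carrier, was at 0, 12.5 and 0 CPM in the Ctrl libraries and 499, 471 and 546 CPM with LPS, 1 UMI against 274. Its ratio was 131 (counting interval 23.2 to 5176, adjusted p = 2.58e-30). Phf11a, at 0 in Ctrl and at 89.3, 155 and 179 CPM with LPS, was at least 12.7-fold higher (adjusted p = 8.66e-09). Serpina3f, a serine protease inhibitor of a tandem family, had 1 and 101 UMIs, a ratio of 48.1 (counting interval 8.45 to 1919.8). Gm14446 rose on the log2 scale by 5.02 (adjusted p = 9.76e-12, SE 0.65), and Papd7 and Pydc4 each had 1 Ctrl UMI, with ratios of 41.9 (counting interval 7.33 to 1675) and 39.6 (counting interval 6.91 to 1581). The largest falls by the same rule were those of 2 fatty acid desaturase genes. Fads1 was at 0, 0 and 4.47 CPM in the LPS libraries and 152, 74.8 and 96 CPM in the Ctrl libraries, a Ctrl-to-LPS ratio of 56.7 (counting interval 9.34 to 2319.5, adjusted p = 1.04e-07). Scd2 was at 0, 5.54 and 4.47 CPM in the LPS libraries and 166, 149.7 and 144 CPM in the Ctrl libraries, a Ctrl-to-LPS ratio of 40.9 (counting interval 10.6 to 349.8, adjusted p = 2.33e-10). These 2 genes were nearly absent from the LPS libraries. Slc43a2, an amino acid carrier, was at 52.1, 5.54 and 17.9 CPM in the LPS libraries and 263, 299 and 374 CPM in the Ctrl libraries and fell (log2 fold change -3.78, adjusted p = 7.50e-16, SE 0.41). Pdxk, pyridoxal kinase, was at 14.9, 33.3 and 8.95 CPM in the LPS libraries and 208, 187 and 288 CPM in the Ctrl libraries and fell (log2 fold change -3.59, adjusted p = 5.54e-12, SE 0.46). Eepd1, Arrb1 (beta-arrestin 1), Bin2, Rcbtb2 and the receptor gene Cd300lb were also among the 10 largest falls, each with at most 10 UMIs with LPS.

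To ask where LPS differs from other ligands, it was compared directly with PAM, CpGB and cGAMP in contrasts that do not use the Ctrl libraries. LPS was above PAM at 513 genes (10.9%) and below it at 252 (5.34%), above CpGB at 135 (2.86%) and below at 61 (1.29%), and above cGAMP at 242 (5.13%) and below at 173 (3.67%). The comparisons share the LPS libraries. Without LPS replicate 3 the genes below CpGB numbered 34. All 33 tested antiviral genes were above PAM, 9 were above CpGB, and against cGAMP none was above and 1, Oasl1, was below. The GTPases were above PAM in all 12 tested cases, above CpGB in 5 and above cGAMP in 1. Of the cytokines, 4 were above PAM and 1, Il1b, below it, and 7 were above cGAMP and 1, Tnfsf15, below it. Chemokines differed both ways from each, with 8 above and 4 below PAM, 3 and 4 for CpGB, and 8 and 4 for cGAMP.

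**Figure D4:**
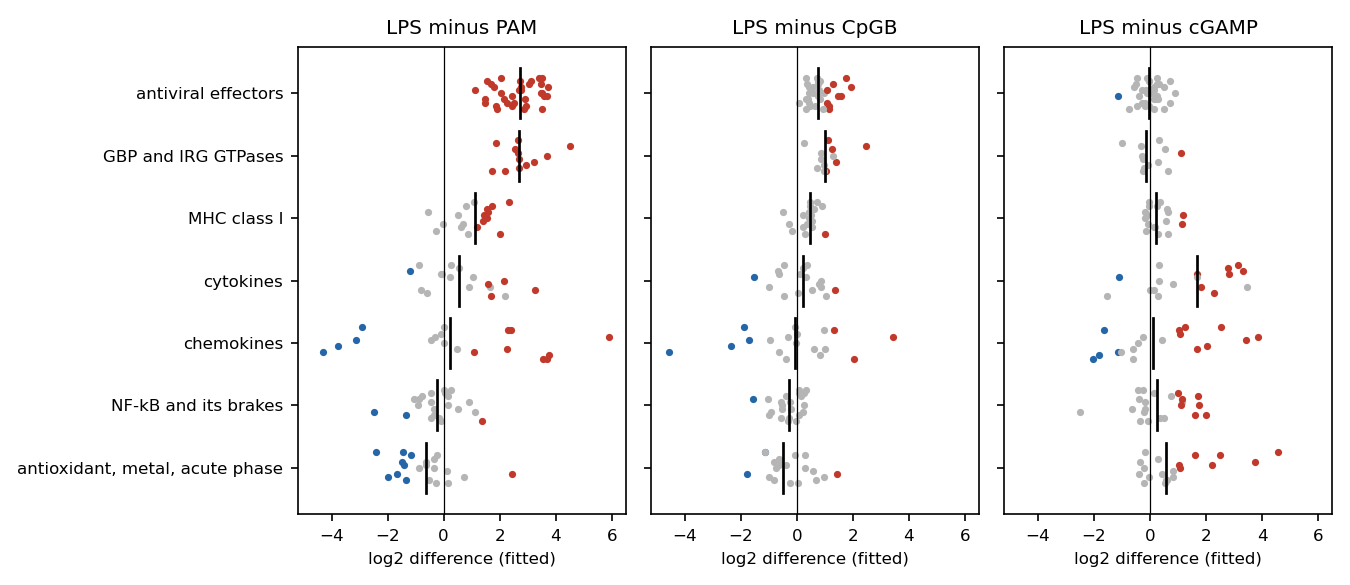
Each point is a tested gene of a list at its fitted log2 difference of LPS minus PAM, CpGB or cGAMP; red points were called higher with LPS, blue points lower, grey points were not called, and the black bar is the list median. Antiviral and GTPase genes lie to the right of 0 against PAM and around 0 against cGAMP, and cytokine medians lie to the right against cGAMP.

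Single genes showed how far apart these ligands were. Iigp1, an immunity-related GTPase, was at 396 ± 44.7 CPM with LPS (SD, n = 3) and 16.6 ± 3.49 with PAM, a log2 difference of 4.50 (adjusted p = 8.21e-23, SE 0.38). Fcgr1 was at 451 ± 37.7 CPM with LPS and 22.2 ± 10.3 with PAM, a difference of 4.29 (adjusted p = 9.45e-22, SE 0.38). Serpina3g, with close relatives, differed from PAM by 4.00 (adjusted p = 1.95e-32, SE 0.27). Cxcl11 had 84 UMIs with LPS, 1 with PAM and 7 with CpGB. In the other direction the neutrophil attractants were lower with LPS than with PAM. Cxcl3 was at 1239 ± 239 CPM with LPS and 10887 ± 339 with PAM (log2 difference -3.14, adjusted p = 1.04e-34, SE 0.20), and Cxcl1 at 123 ± 9.86 and 1724 ± 110.0 CPM (log2 difference -3.79, adjusted p = 5.05e-36, SE 0.24). Cxcl2 was lower with LPS than with PAM or CpGB (log2 difference -2.92, adjusted p = 3.36e-37, SE 0.18, against PAM, and log2 difference -1.89, adjusted p = 1.50e-18, SE 0.18, against CpGB). Fosl2, a partner in AP-1 factors, was at 25 ± 9.32 CPM with LPS and 189.8 ± 18.6 with PAM (log2 difference -2.84, adjusted p = 3.59e-12, SE 0.36). Hopx, a homeodomain-only protein gene, averaged 152 ± 3.15 CPM for LPS, 22.8 ± 13 for CpGB and 669 ± 187 for cGAMP, so that LPS was above CpGB (log2 difference 2.56, adjusted p = 2.50e-05, SE 0.48) and below cGAMP (log2 difference -2.10, adjusted p = 1.80e-11, SE 0.27). Against cGAMP, Cav1, the caveolin-1 gene, was at 737 ± 148 and 48.7 ± 28.5 CPM (log2 difference 4.00, adjusted p = 3.60e-34, SE 0.26), and Saa3 was higher with LPS by 3.76 (adjusted p = 4.36e-39, SE 0.22). Lad1 had 63 UMIs with LPS and 1 with cGAMP. Ifnb1 was the reverse, at 13.4 ± 11.8 CPM with LPS and 196 ± 78.8 with cGAMP (log2 difference -3.61, adjusted p = 4.82e-11, SE 0.47). Pdxk, which fell against Ctrl, was at 182 ± 46.9 CPM with cGAMP and 19 ± 12.7 with LPS (log2 difference -3.28, adjusted p = 1.73e-10, SE 0.44).

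Against the other single ligands, LPS was above SeV at 222 genes (4.7%) and below it at 150 (3.18%), above HMW at 610 (12.9%) and below at 411 (8.71%), and above Zymosan at 635 (13.5%) and below at 434 (9.19%).

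LPS was above every one of the 6 other single ligands at 9 genes (0.191% of tested genes), each by at least 1 on the log2 scale, with the largest of the 6 p-values adjusted over all tested genes. At unadjusted p under 0.05, 14 genes met the same fold rule. None was below all 6 in edgeR's quasi-likelihood test (0 genes, and 5 at unadjusted p under 0.05). Ch25h was at 417, 427 and 465 CPM with LPS and at 191, 215 and 117 CPM with SeV, the highest of the others. The smallest of its 6 log2 differences was 1.40 (adjusted p = 6.24e-05). AA467197, the mouse counterpart of NMES1, was at 2851, 3458 and 3566 CPM with LPS and at 1252, 1521 and 1946 CPM with CpGB, next highest, a smallest difference of 1.05 (adjusted p = 2.13e-09). Cd40 was at 1489, 1591 and 1535 CPM with LPS and 650.2, 914 and 687 CPM with CpGB, a smallest difference of 1.02 (adjusted p = 1.89e-07). These 3 kept the call without any 1 of the LPS libraries, but not under every scaling. AA467197 lost it with library size alone, Cd40 with library size alone, RLE factors or thinned counts, and Ch25h with thinned counts (adjusted p = 0.778).

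**Figure D5:**
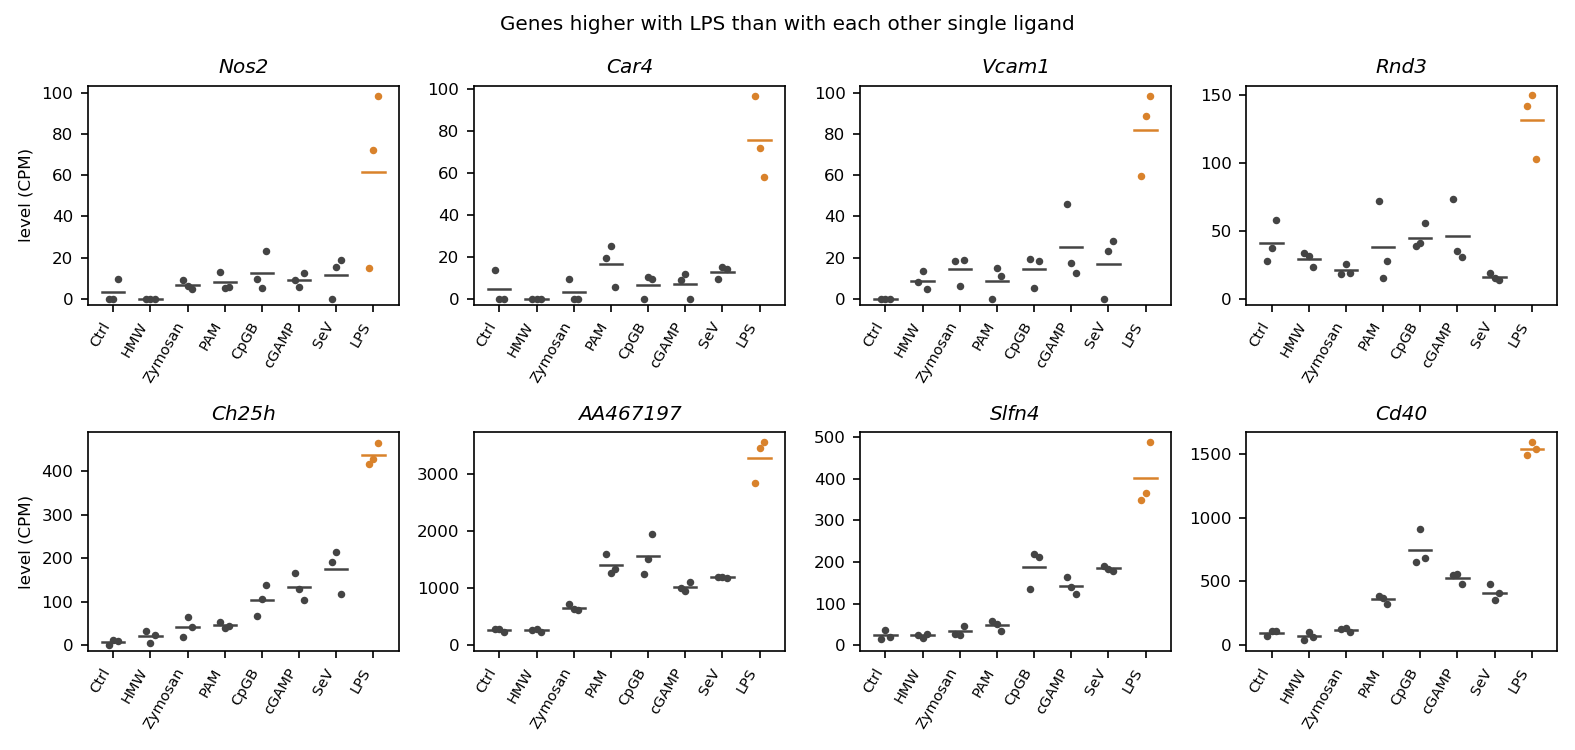
Each panel is 1 of 8 of the genes higher with LPS than with each of the 6 other single ligands, points are libraries (level in CPM, linear axis from 0), horizontal bars are group means, LPS is orange and the other groups grey. Ch25h, AA467197 and Cd40 show all 3 LPS libraries clear of every other library, and Nos2 shows LPS libraries at 14.9, 72 and 98.4 CPM.

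Another 5 genes lost the call when 1 of the LPS libraries was left out. Slfn4 was at 349.9, 366 and 488 CPM with LPS against 136, 219.5 and 212 CPM with CpGB, a smallest difference of 1.04 (adjusted p = 0.0172), and lost the call without LPS replicate 3. Rnd3, a small GTPase, was at 141, 149.6 and 103 CPM with LPS against 73.4, 35.1 and 30.7 CPM with cGAMP (smallest difference 1.46, adjusted p = 0.0276) and lost it without LPS replicate 1 or 2. Vcam1, an adhesion molecule, was at 59.6, 88.7 and 98.4 CPM with LPS against 45.8, 17.5 and 12.3 CPM with cGAMP (smallest difference 1.87, adjusted p = 0.0215) and lost it without LPS replicate 2 or 3. Both were next highest with cGAMP. Car4, a carbonic anhydrase, was at 96.8, 72 and 58.2 CPM with LPS against 19.7, 25.1 and 5.56 CPM with PAM (smallest difference 2.06, adjusted p = 0.0231) and lost it without LPS replicate 1 or 2. Nos2 was at 14.9, 72 and 98.4 CPM with LPS against 9.7, 5.11 and 23.1 CPM with CpGB (smallest difference 2.26, adjusted p = 0.0387) and lost it without LPS replicate 2 or 3. With library size alone the count was 3 (Car4, Ch25h and Vcam1), and with libraries thinned to equal totals it was 1 (AA467197).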

How the data were processed

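The authors' deposited table holds UMI counts for 23481 genes in 64 groups of 3 mRNA libraries. Per the submitters' processing notes BWA 0.7.15 and build mm10 were used. The annotation, the UMI rule, strand use and the treatment of reads matching several genes are not given in the sources used here. Samples were grouped by ligand label. Genes with low counts were removed (filterByExpr, 4720 kept), libraries scaled by TMM, and edgeR 4.0.16 in R 4.3.3 fitted its quasi-likelihood model over all 64 groups. CPM use the TMM-scaled library sizes. LPS above or below all 6 ligands was tested by the largest of the 6 p-values with Benjamini-Hochberg adjustment. The procedure was tested on simulated data. Depth was 61823 to 229979 counts in the 6 libraries, and replicates differed beyond sampling noise. With 3 libraries against 3, an exact permutation test cannot go below 0.10.

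Members and gene lists were chosen with earlier results of these data known. Genes given with every library are the largest changes of each list (mean of at least 50 CPM), plus Tlr4, Cd14, Ly96 and Ifnb1, and the 10 largest rises and falls of non-overlapping genes (mean of at least 100 CPM). For single ligands the rule gave the 5 largest differences each way. Promoter genes and other list members were named after their values were seen. Alternatives were RLE factors, library size alone, no filter, thinning to equal totals (46564 counts), a replicate block, DESeq2 1.42.0, LPS and Ctrl alone, no fold threshold and leaving out each replicate. Values of a few genes are not reported here.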

Additional observations from a re-analysis of the deposited data

How the results depend on the processing

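Depth limits the Ctrl side most: 34 genes called higher had 0 Ctrl counts and 104 had 1 to 3, so their sizes are known only as bounds or wide ratios. Whether replicate numbers paired the libraries could not be decided. Same-numbered LPS and Ctrl libraries had correlations of deviations of -0.0121, -0.0109 and -0.00936, and those of different numbers -0.0175 to 0.0262. Counting noise at this depth can hold such correlations near 0 whether or not libraries were paired. The fit with a replicate block called 691 genes higher and 457 lower and changed no call of a named gene. Over 179 named genes and 2284 alternative values, 2187 kept direction and call, 77 lost the call, 14 gained it and 6 turned in sign. Those were H2-Aa (-0.13 with library size alone, -0.13 thinned), H2-Ab1 (-0.054 with library size alone), and, thinned to equal totals, Ifnb1 (-3.15), Il12b (-0.0076) and Rela (-0.32), none of them called in either fit.

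Thinning to equal totals, which leaves 1854 genes to test, gave 403 higher and 233 lower genes for LPS against Ctrl, 227 and 111 against PAM, 47 and 29 against CpGB, 120 and 67 against cGAMP, 117 and 57 against SeV, 334 and 175 against HMW, 301 and 211 against Zymosan, and 1 above all 6. Of the 1143 genes called against Ctrl, 679 could be tested after thinning, of which 528 kept the call and 4 turned in sign. Thinning also ended the calls against Ctrl of B2m, Ccl7, Gclc, Irak2, Irf9, March1, Nfkb1, Nfkbib, Nfkbie, Slc30a1 and Tnip1, and testing without a filter those of Alox5ap, C1qa, Ctsd, Fcgr3, Gclm, Hmgb2, Lgmn, Lta4h, Npc1 and Pycard. Library size alone gave 765 lower against Ctrl, 725 lower against HMW and 3 above all 6. Without the filter 284 were lower against Ctrl, and in LPS and Ctrl alone, with 1884 genes tested, 249. Without the fold threshold 423 were below PAM, 262 above and 121 below CpGB, 272 below cGAMP, 241 below SeV, 629 below HMW, 24 above all 6 and 3 below all 6.

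Counts for lists moved as follows, and the cause was not tested unless given. For lower genes, NF-kB gave 0 in LPS and Ctrl alone; eicosanoids 2 without the filter; glycolysis 2 with RLE factors or DESeq2 and 3 with library size alone or thinned; oxidative phosphorylation 11 with library size alone, 2 without the filter and 3 in LPS and Ctrl alone; Fc and complement receptors 1 without the filter; cell cycle 2 with library size alone and 0 without the filter, thinned or in LPS and Ctrl alone; cholesterol 0 under those same 3 settings; the lower genes of NF-kB, cell cycle and cholesterol were not among the genes tested in LPS and Ctrl alone, nor the last 2 after thinning; lysosome 10 with library size alone and 2 without the filter; inflammasome 0 without the filter; and antioxidant 4 with RLE factors, library size alone, DESeq2 or thinned and 1 without the filter. For higher genes, class II gave 0 thinned, lectins 2 thinned, Fc and complement receptors 5 without the filter, cholesterol 1 with library size alone, DESeq2 or thinned, and survival 2 with RLE factors, library size alone, DESeq2 or thinned.

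Leaving out 1 replicate at a time gave 632 to 742 genes higher and 348 to 379 lower than Ctrl. It gave 34 to 50 below CpGB and 6 to 8 above all 6. Such fits also tested more genes (4959 to 5030) and had shifts of 0.06 to 0.12. With only the fold cut moved by the shift, 604 to 710 genes were higher and 363 to 394 lower than Ctrl. How far a call lost in such a fit came from the shift or from the library left out was not tested. The list counts that moved ranged from 0 to 1 for class II higher, cholesterol lower and inflammasome lower, from 2 to 4 for eicosanoids lower, 3 to 5 for glycolysis higher, 2 to 6 for oxidative phosphorylation lower, 2 to 5 for lysosome lower and for survival higher, and 1 to 3 for antioxidant lower, and stayed at 0 for cell cycle lower.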
